A study of Mus musculus with 24 samples.

Results

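OSKM, the transcription factors Oct4 (Pou5f1), Sox2, Klf4 and c-Myc (Myc), was induced in the myofibers of adult mice for 2.5 days, and RNA-seq of the extensor digitorum longus (EDL) muscle is described here. The members are the 4 EDL libraries that the labels place at 2.5 days of doxycycline (Dox), out of 24 libraries in the series. There are 2 libraries from Acta1-Cre+/4Fhet mice and 2 from Acta1-Cre-/4Fhet mice, all 2 months old. Both genotypes carry the polycistronic OSKM cassette (4Fhet), a LoxP-STOP-LoxP blocked rtTA and GFP, and both drank Dox at 1 mg/ml. The Acta1 promoter drives Cre in skeletal myofibers, so the Cre- mice control for the cassette and for Dox but carry no Cre. Male and female mice were used in the study, and the sex of each library is not in the labels. All 4 libraries had 6 to 16 counts of Xist, the RNA of the inactive X, and 2304 to 3039 of Ddx3y, a gene of the Y chromosome, the pattern of male tissue. The comparison asks which transcripts of a fast muscle moved after a short pulse of OSKM, and each change was read in both Cre+ libraries because they differ in how much OSKM they carry.

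EDL is a hindlimb muscle built mainly of fast-twitch fibers, which contract quickly, store glycogen and rely on glycolysis more than slow fibers do. In cell culture, OSKM can turn a differentiated cell into a pluripotent one, a course in which genes of the original cell type are shut and epithelial and then embryonic genes are opened. Myc, one of the 4 factors, is known for driving ribosome production, nucleotide synthesis and growth, and binds the E-box CACGTG. Myofibers are long multinucleate cells that have left the cell cycle, and the muscle stem cells, called satellite cells, sit on their surface and receive signals from them.

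The cassette was on in both Cre+ libraries, with more transcript in replicate 2. Pou5f1 (chr17:35506032-35510777, GRCm38) had 4 and 1 counts in the Cre- libraries and 1129 and 4206 in Cre+, and Sox2 (chr3:34649995-34652460) had 6 and 2 counts in Cre- and 845 and 3355 in Cre+. Myc and Klf4 are also active in control muscle, at 3.18 and 2.44 FPKM (Myc) and 9.30 and 7.01 FPKM (Klf4), where FPKM is counts per kilobase of exon, scaled to the total count of the library. In Cre+ they stood at 25.4 and 99.4 FPKM (Myc) and 24.4 and 59.9 FPKM (Klf4). For each of the 4 genes both Cre+ libraries lay above both Cre- libraries. Cre+ replicate 2 held 4.02 times the Pou5f1 FPKM of replicate 1, 4.29 times the Sox2, 3.91 times the Myc and 2.46 times the Klf4. Counts do not separate cassette transcripts from those of the endogenous genes, and Sox2 lies inside the transcript Sox2ot. Klf4 (1.30) did not pass the test without Cre+ replicate 2. Here and below, a value in brackets after such a gene is its log2 fold change in the fit without that library.

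**Figure D1:**
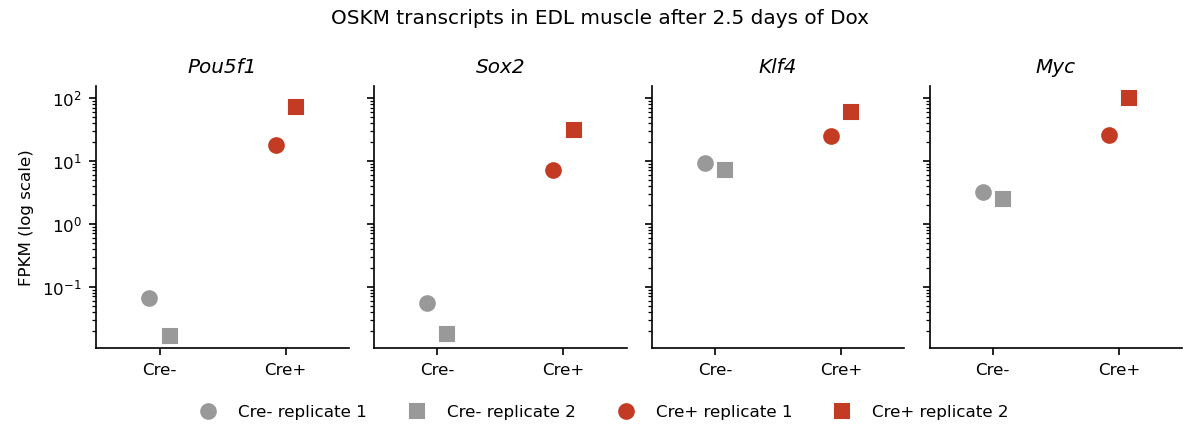
Level of each OSKM transcript in FPKM (log axis) in the 2 Cre- and 2 Cre+ EDL libraries of 2.5 days, with circles for replicate 1 and squares for replicate 2. Every Cre+ point lies above every Cre- point, and the Cre+ squares lie above the Cre+ circles, with Pou5f1 at 70.5 against 17.5 FPKM.

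Of 24537 genes in the table, 15372 passed the filter on low counts and were tested with edgeR's quasi-likelihood test, with p adjusted by Benjamini-Hochberg. A gene is called, and said to have risen or fallen, when its adjusted p is under 0.05 and its absolute log2 fold change (Cre+ over Cre-) is over 0.5. By this rule 2118 genes rose (13.8% of those tested) and 1566 fell (10.2%), among them 66 and 100 noncoding RNAs. Large changes were mostly rises: 494 of the genes that rose and 78 of those that fell changed by more than 2 on the log2 scale, and 161 and 3 changed by more than 4. The control level of the genes that rose had a median of 3.28 FPKM, against 12.3 FPKM for those that fell. On TMM-scaled CPM (library sizes adjusted by the trimmed mean of M values), both Cre+ libraries lay above both Cre- libraries in 4714 tested genes (30.7%) and below them in 5310 (34.5%), whether called or not.

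The 2 Cre+ libraries moved in the same direction in every called gene, and replicate 2 usually moved further. Among the rises, 2116 of 2118 had both Cre+ libraries above both Cre- libraries, and among the falls all 1566 had both below. A call from so few libraries favors genes whose groups do not overlap, so these counts are largely set by the call. Replicate 2 was further from the controls than replicate 1 in 1763 of the rises (83.2%) and 1253 of the falls (80.0%). The median change of the genes that rose was 0.90 in replicate 1 and 1.30 in replicate 2, and that of the genes that fell was -0.74 and -0.97, on the log2 scale of TMM-scaled CPM. Fitted without replicate 1, 2512 genes rose and 1768 fell. Fitted without replicate 2, 1288 rose and 714 fell, and the falls numbered 1021 without Cre- replicate 2. Of all calls 1193 rises and 639 falls were also called without either Cre+ library. Scaling mattered as well: when TMM factors were dropped and only library size was used, 4207 genes rose and 610 fell, because the median of all tested genes moved from -0.05 to 0.28. TMM factors were 1.09 and 1.16 in Cre+ and 0.91 and 0.88 in Cre-, so that fold changes are smaller than ratios of FPKM for rises and larger for falls.

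**Figure D2:**
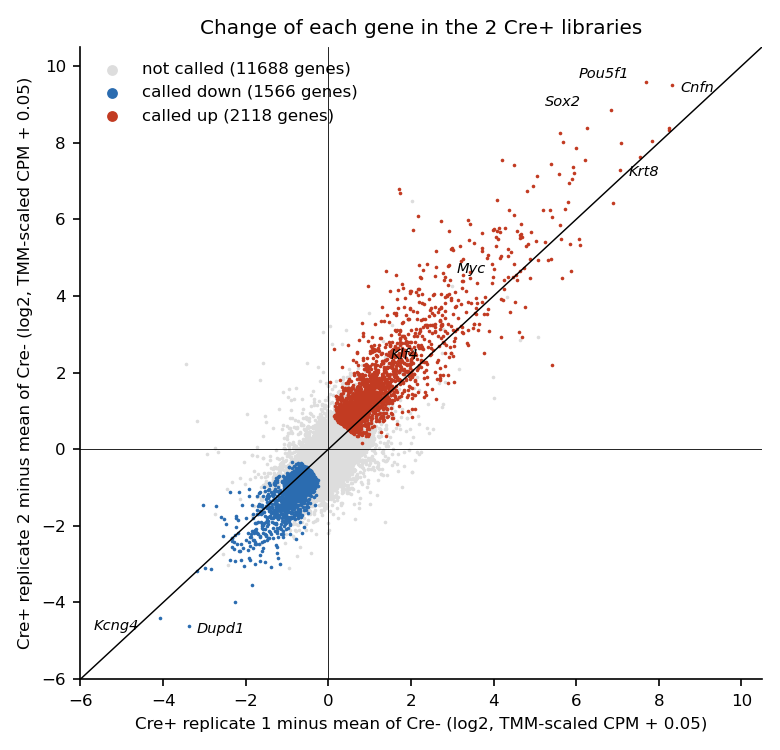
Change of each tested gene from the mean of the Cre- libraries in Cre+ replicate 1 (x axis) and Cre+ replicate 2 (y axis), in log2 of TMM-scaled CPM plus 0.05, with genes called up in red, down in blue and others in gray, and the line of equal change. Most called genes lie further from 0 in replicate 2, as 1763 of 2118 rises and 1253 of 1566 falls do.

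All libraries had markers of myofibers at very high level, as a muscle should, and the sums of other marker lists were far lower, the highest being that of fibroblast markers at 1369 to 2495 FPKM. The summed FPKM of the 10 myofiber markers was 99320 and 111900 in Cre- and 78270 and 62260 in Cre+, and 6 of the 10 fell. For comparison, 10.2% of all tested genes fell and 13.8% rose. After TMM scaling all 10 myofiber markers were lower in both Cre+ libraries, and in FPKM 7 were. None of the 10 fell without Cre+ replicate 2, and 3 fell without Cre- replicate 2. Of the 10 endothelial markers 6 fell, and all 10 were lower in both Cre+ libraries after TMM scaling and 6 in FPKM, with a summed level of 163 and 181 FPKM in Cre- against 142 and 136 in Cre+. Tie1, an endothelial receptor, had 14.5 and 16.6 FPKM in Cre- and 11.1 and 10.6 in Cre+ (log2 fold change -0.85, SE 0.16, adjusted p = 0.00164). Of the satellite cell markers 3 of 9 fell, with sums of 38.7 and 39.5 FPKM in Cre- and 42.5 and 32.6 in Cre+. Pax7, the defining satellite cell factor, had 1.26 and 0.879 FPKM in Cre- and 1.43 and 1.80 in Cre+, and its difference did not pass (adjusted p = 0.346). Among pericyte and smooth muscle markers 1 of 8 rose and 3 fell (sums 169 and 179 FPKM in Cre-, 151 and 158 in Cre+), and none of the macrophage (12 tested), fibroblast (9), tendon (7), Schwann cell (8), adipocyte (7), erythroid (6), neutrophil (5), lymphocyte (3) or sex-linked (5) markers was called. By library size alone, without Cre+ replicate 2 or without Cre- replicate 2, the falls in each case came to 1 endothelial, 1 satellite cell and 1 pericyte and smooth muscle marker. Without Cre+ replicate 1, 1 macrophage, 1 fibroblast, 3 tendon and 3 erythroid markers fell. Erythroid sums were 1678 and 832 FPKM in Cre- and 1526 and 663 in Cre+, so that replicate 1 was higher in both genotypes. The Cre+ libraries differed in other markers too. The median log2 change from Cre- was -0.52 in replicate 1 and 0.79 in replicate 2 for adipocyte markers, and 0.02 and -0.72 for tendon markers. One of 11 liver transcripts rose, the secreted protein Ahsg (0.0602 and 0.0728 FPKM in Cre- and 0.667 and 2.85 in Cre+), while Alb did not pass (0.343 and 0.483 FPKM in Cre- and 0.276 and 0.166 in Cre+). In bulk muscle, fewer cells of a type and less RNA per cell cannot be told apart, and the part of these cell types in the results was not tested. Ahsg (3.01) did not pass the test without Cre+ replicate 2. Ahsg (4.18) fell short of the threshold without Cre- replicate 1. Ahsg (4.50) lost the call without Cre- replicate 2.

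The largest rises were of genes that control muscle hardly transcribes. Krt73 and Krt8, keratins of hair sheath and simple epithelia, went from 0 and 0 (Krt73) and 1 and 0 counts (Krt8) in Cre- to 307 and 218 (Krt73) and 425 and 494 (Krt8) in Cre+. Krt7, the keratin of ductal epithelia, stood at 0.0862 and 0.0418 FPKM in Cre- and 5.31 and 35.6 in Cre+ (log2 fold change 7.93, SE 1.10, adjusted p = 0.000281). Cnfn, cornifelin of the skin's cornified envelope, reached the highest level of this kind, with 0.127 and 0 FPKM in Cre- and 42.2 and 101 in Cre+. Aqp3, a water and glycerol channel of epithelia, had 0 counts in both Cre- libraries and 56 and 437 in Cre+. Measured against a limit of 3 counts per control library, the mean of the Cre+ libraries was at least 67.8-fold higher for Krt73 and 64.0-fold for Aqp3. The limit for Aqp3 rests mainly on replicate 2 (437 counts) and would be far lower from replicate 1 alone (56 counts). The rule that named these genes required a rise in both Cre+ libraries. Within Cre+, Aqp3, Krt7 and Cnfn were higher in replicate 2, and Krt73 was higher in replicate 1.

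Of the 47 genes on the list of epithelial and junction genes, 32 passed the filter, and 7 of these rose and 1 fell (21.9% and 3.12%, against 13.8% and 10.2% over all tested genes), while the median of the 32 was -0.18 against -0.05 for all genes. With library size alone the list median was 0.15 and that of all genes 0.28. The members that rose were Krt8, Krt7, the desmosome and envelope proteins Pkp1, Evpl and Dsp, the laminin chain Lama3 and the factor Elf3. Evpl, envoplakin, had 0.0924 and 0.0241 FPKM in Cre- and 9.17 and 18.2 in Cre+ (log2 fold change 7.54, SE 0.61, adjusted p = 1.04e-05). Lama3, a chain of the basement membrane of epithelia, had 1.16 and 0.261 FPKM in Cre- and 18.9 and 77.2 in Cre+ (log2 fold change 5.74, SE 0.85, adjusted p = 0.00042). In both, the Cre+ libraries lay far above controls and replicate 2 carried the higher value. Krt7 and Pkp1 had 10 counts in at most 1 of the 8 Cre- libraries of the fit. They passed the filter through Cre+ libraries and had to be higher there. The share of 21.9% counts these 2 genes, so it is partly set by the filter.

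Other genes that were close to silent in controls belong to several tissues. P2rx2, an ATP-gated ion channel, had 2 and 0 counts in Cre- and 681 and 721 in Cre+, nearly equal in the 2 Cre+ libraries (7.47 and 8.54 FPKM). Bhlha15 (Mist1), a factor of secretory cells, had 0.0324 and 0.0126 FPKM in Cre- and 2.10 and 11.4 in Cre+, and Il12rb1, a chain of the interleukin 12 receptor, had 0.0159 and 0.00768 FPKM in Cre- and 2.43 and 6.51 in Cre+. Both were called, Bhlha15 with adjusted p = 0.000134 and Il12rb1 with adjusted p = 4.92e-05. Glt1d1, a putative glycosyltransferase, rose from 1 and 0 counts to 242 and 1051. Pou4f2, a POU factor of retinal ganglion cells, had 1 and 0 counts in Cre- and 151 and 457 in Cre+ (SE of the log2 fold change 2.34, adjusted p = 0.0221). Aqp3, Bhlha15, Cnfn, Glt1d1, Il12rb1, Krt73, P2rx2 and Pou4f2 also had 10 counts in at most 1 of the 8 Cre- libraries and passed the filter through Cre+, so that their direction was set by the filter. Fitted changes of genes with so few control counts depend on edgeR's prior count and are no bounds. Pou4f2 (7.57) did not pass the test without Cre+ replicate 2. Pou4f2 (11.05) fell short of the threshold without Cre- replicate 1. Pou4f2 (7.73) lost the call without Cre- replicate 2.

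Most genes of the pluripotency network beyond the OSKM genes had few or no counts at 2.5 days. Of 26 genes on this list 16 did not pass the filter, with at most 12 counts in any of the 4 libraries and 8 of them at 0 in all, Nanog, Zfp42 and Dppa3 among the latter. For a gene at 0 the depth allows up to 3 counts a library, or 0.0627 to 0.0679 CPM. Of the 10 genes tested, 3 fell and 2 were called as rises (30% and 20%, against 10.2% and 13.8% over all tested genes). One of the latter, L1td1, passed the filter through Cre+ libraries, so that its direction was set by the filter. L1td1, an RNA-binding protein of embryonic stem cells, had 1 and 0 counts in Cre- and 12 and 85 in Cre+. Tet1, a 5-methylcytosine dioxygenase, had 0.293 and 0.365 FPKM in Cre- and 1.18 and 0.978 in Cre+ (log2 fold change 1.38, SE 0.35, adjusted p = 0.0115). Tfcp2l1, a factor of naive pluripotency that epithelia also use, fell in both Cre+ libraries, from 0.751 and 0.692 FPKM to 0.282 and 0.293 (log2 fold change -1.66, SE 0.30, adjusted p = 0.00139). Klf2, the most abundant member, had 18.7 and 16.5 FPKM in Cre- and 18 and 17.0 in Cre+ (adjusted p = 0.453). The falls numbered 1 with library size alone, 1 without Cre+ replicate 2 and 1 without Cre- replicate 2. Tet1 (1.20) did not pass the test without Cre+ replicate 1. L1td1 (3.93) fell short of the threshold without Cre+ replicate 2. L1td1 (8.40) and Tet1 (1.21) lost the call without Cre- replicate 1. L1td1 (5.09) was not called without Cre- replicate 2.

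Most transcripts of the contractile apparatus fell. Of 30 sarcomere genes 21 fell and 1 rose (10.2% and 13.8% over all tested genes), with a median of -0.86, -0.67 in Cre+ replicate 1 and -1.04 in replicate 2. Acta1, the skeletal actin whose promoter drives the Cre, had 18460 and 21100 FPKM in Cre- and 11860 and 10420 in Cre+ (log2 fold change -1.16, SE 0.27, adjusted p = 0.00703). Tcap, the titin cap of the Z disc, had the largest fall of the list, with 5604 and 4117 FPKM in Cre- and 1686 and 1372 in Cre+ (log2 fold change -1.99, SE 0.28, adjusted p = 0.000338). Tpm1, a tropomyosin, had 8555 and 11040 FPKM in Cre- and 5997 and 4842 in Cre+ (log2 fold change -1.18, SE 0.27, adjusted p = 0.00587), and Smyd1, a muscle methyltransferase needed for myofibrils, had 171 and 185 FPKM in Cre- and 135 and 101 in Cre+. Both Cre+ libraries were below both controls in all 4 of these genes. Myom3, an M-band protein of slower fibers, went the other way, with 6.11 and 7.10 FPKM in Cre- and 50.6 and 42.8 in Cre+ (log2 fold change 2.49, SE 0.26, adjusted p = 4.77e-05). With library size alone 14 of the 30 fell, and 7 without Cre+ replicate 2. Acta1 (-1.02) and Tpm1 (-0.99) did not pass the test without Cre+ replicate 2. Tpm1 (-0.96) fell short of the threshold without Cre- replicate 2.

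Of 17 genes of fast fibers 9 fell and none rose (52.9% and 0%, against 10.2% and 13.8% over all tested genes). Their median was -0.87. After TMM scaling all 17 were lower in both Cre+ libraries, and in FPKM 12 were. Only 3 fell without Cre+ replicate 2 and 4 without Cre- replicate 2. Pvalb, the calcium buffer of fast fibers, had 11930 and 15950 FPKM in Cre- and 5932 and 4791 in Cre+ (log2 fold change -1.71, SE 0.49, adjusted p = 0.021). Among the troponin subunits of fast fibers, Tnni2 had 15630 and 15220 FPKM in Cre- and 8758 and 7680 in Cre+ (log2 fold change -1.23, SE 0.23, adjusted p = 0.00169), Tnnt3 had 19270 and 22010 FPKM in Cre- and 13880 and 13150 in Cre+ and Tnnc2 had 13070 and 14360 FPKM in Cre- and 10200 and 8268 in Cre+. Tnni2, Tnnt3 and Tnnc2 fell, Tnnt3 by 0.94 and Tnnc2 by 0.90 on the log2 scale. Myoz1, a Z-disc protein of fast fibers, fell by 1.27 (SE 0.23). The most abundant transcript of all, the fast light chain Mylpf, had 21480 and 23120 FPKM in Cre- and 24500 and 17880 in Cre+, an overlap of the groups, and did not pass (adjusted p = 0.331). The fast heavy chain Myh4 had 5707 and 6872 FPKM in Cre- and 6804 and 2695 in Cre+, so that only replicate 2 was below the controls (log2 fold change -0.72, SE 1.01, adjusted p = 0.635). Pvalb (-1.52), Tnnc2 (-0.71) and Tnnt3 (-0.86) did not pass the test without Cre+ replicate 2. Pvalb (-1.45), Tnnc2 (-0.80) and Tnnt3 (-0.82) fell short of the threshold without Cre- replicate 2.

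Slow fiber genes had no common direction in the 2 Cre+ libraries. Of 14, 1 fell and none rose (7.14% and 0%, against 10.2% and 13.8% over all tested genes). The median was -0.70 in Cre+ replicate 1 and 0.54 in replicate 2. Mb, myoglobin, was the most abundant at 2604 and 2257 FPKM in Cre- and 1439 and 2044 in Cre+, with adjusted p = 0.0704. Myh7b, a slow myosin of extraocular muscle, was called although its libraries overlapped before scaling, at 3.25 and 1.73 FPKM in Cre- and 1.68 and 1.98 in Cre+ (log2 fold change -0.78, SE 0.25, adjusted p = 0.0349). The list median was -0.13, and 0.20 with library size alone, against -0.05 and 0.28 for all genes. Myh7b (-0.70) did not pass the test without Cre+ replicate 1. Myh7b (-0.85) fell short of the threshold without Cre+ replicate 2. Myh7b (-0.28) lost the call without Cre- replicate 1.

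Genes of excitation and calcium release fell more often than they rose, 17 against 4 of 34 (50% and 11.8%, against 10.2% and 13.8% over all tested genes), with a median of -0.46. Jph2, which ties the T tubule to the calcium store, had 284 and 308 FPKM in Cre- and 162 and 90.8 in Cre+ (log2 fold change -1.55, SE 0.26, adjusted p = 0.000833), lowest in replicate 2. Atp2a1, the calcium pump of fast fibers, was among the 10 most abundant transcripts and had 10930 and 10540 FPKM in Cre- and 11380 and 10290 in Cre+ (log2 fold change -0.31, adjusted p = 0.421). Kcng4, a modifier subunit of voltage-gated potassium channels that is on no list, had the largest fall of any gene of at least 1 FPKM, from 11.8 and 18.8 to 1.07 and 0.902 FPKM (log2 fold change -4.29, SE 0.54, adjusted p = 0.000152). With library size alone 9 of the 34 fell, 9 without Cre+ replicate 2 and 10 without Cre- replicate 2. Rises numbered 2 in either of the latter fits.

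Among genes of developing and denervated muscle, 3 rose and 6 fell of 25 (12% and 24%, against 13.8% and 10.2% over all tested genes). Ncam1, an adhesion molecule that spreads over denervated fibers, rose 10.8-fold, from 1.60 and 2.17 to 19.5 and 32.4 FPKM (log2 fold change 3.44, SE 0.31, adjusted p = 1.73e-05). Runx1, which denervation induces, rose by 1.83 (SE 0.30) from 0.353 and 0.388 FPKM. Actc1, the cardiac actin that fetal and regenerating muscle uses, fell from 140.4 and 245 to 52.0 and 32.4 FPKM (log2 fold change -2.52, SE 0.48, adjusted p = 0.00194), and Chrnb1, an acetylcholine receptor subunit, fell by 1.80 (SE 0.18). The imprinted RNA H19 had 874 and 1280 FPKM in Cre- and 646 and 545 in Cre+ (log2 fold change -1.19, SE 0.26, adjusted p = 0.00504). Mir675, the microRNA hosted by H19, fell by 1.32 and the neighboring growth factor Igf2 by 0.84, and Nctc1, a noncoding RNA of the same locus, fell from 108 and 110.2 to 27.7 and 18.8 FPKM (log2 fold change -2.56, SE 0.21, adjusted p = 1.16e-05). Reads of Mir675 cannot be told from those of H19, in which it lies. Library size alone gave 5 rises and 4 falls, and 3 fell without Cre+ replicate 2 and 3 without Cre- replicate 2. H19 (-1.03) did not pass the test without Cre+ replicate 2. H19 (-0.85) fell short of the threshold without Cre- replicate 2.

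Among 18 myogenic factors tested, 2 rose and 4 fell (11.1% and 22.2%, against 13.8% and 10.2% over all tested genes). Mef2d, the most abundant, had 58.7 and 57.5 FPKM in Cre- and 98.3 and 122 in Cre+ (log2 fold change 0.59, SE 0.13, adjusted p = 0.00552), and Tead4 rose by 1.39 (SE 0.27) from 1.60 and 1.31 FPKM. Srf, which drives actin genes, had 22.6 and 23.1 FPKM in Cre- and 15.8 and 12.1 in Cre+ (log2 fold change -1.03, SE 0.17, adjusted p = 0.000758). The muscle microRNA locus Mir133a-2 (chr2:180398379-180398482) had 87 and 72 counts in Cre- and 23 and 10 in Cre+ (log2 fold change -2.63, SE 0.53, adjusted p = 0.00302), which in a polyA library reads its precursor and not the mature microRNA. Its host transcript Mir1a-1hg, from which its reads cannot be told, fell by 1.66 (SE 0.21), from 16.8 and 18.3 to 7.75 and 6.16 FPKM. The balance turned with library size alone (5 rises and 1 fall), while 9 fell without Cre+ replicate 1, 1 without Cre+ replicate 2, 1 without Cre- replicate 1 and 2 without Cre- replicate 2. Mef2d (0.48) did not pass the test without Cre+ replicate 2.

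Most genes of sugar breakdown fell. Of 34 genes of glycolysis and glycogen 22 fell and 1 rose (64.7% and 2.94%, against 10.2% and 13.8% over all tested genes). The median was -0.58 in Cre+ replicate 1 and -1.14 in replicate 2. Phkg1, the catalytic subunit of muscle phosphorylase kinase, had 304 and 327 FPKM in Cre- and 112 and 51.4 in Cre+ (log2 fold change -2.27, SE 0.33, adjusted p = 0.000409). Gpd1, glycerol 3-phosphate dehydrogenase, had 346 and 446 FPKM in Cre- and 152 and 107 in Cre+ (log2 fold change -1.94, SE 0.26, adjusted p = 0.000209). Aldoa, the most abundant, had 9570 and 10770 FPKM in Cre- and 6751 and 5594 in Cre+ (log2 fold change -1.05, SE 0.22, adjusted p = 0.00395). In all 3 genes replicate 2 was the lower of the Cre+ libraries. Hk2, which traps glucose in the fiber, fell by 1.48 and Slc2a4 (Glut4), the insulin-responsive glucose carrier, by 1.32. The gene of the list that rose was Fbp2, an enzyme of glucose synthesis, whose call was lost without Cre- replicate 2, while 4 rose with library size alone. With library size alone 15 of the 34 fell, and 11 without Cre+ replicate 2 and 13 without Cre- replicate 2. Aldoa (-0.88) did not pass the test without Cre+ replicate 2.

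Most respiratory chain genes fell, by small and even amounts, where 10.2% of all tested genes fell and 13.8% rose. Of 37 genes of complex I 32 fell and none rose, with medians of -0.72 and -0.73 in Cre+ replicates 1 and 2, and 36 were lower in both Cre+ libraries after TMM scaling. Of 42 genes of complexes II to V 37 fell and none rose, with medians of -0.75 and -0.76. These medians were nearly equal in the 2 Cre+ libraries, whereas those of glycolysis and the sarcomere were lower in replicate 2. Ndufs7, an iron-sulfur subunit, had 410.4 and 421 FPKM in Cre- and 233 and 249.8 in Cre+ (log2 fold change -1.11, SE 0.16, adjusted p = 0.000287). Ndufa5 and Ndufa4, both counted here on the complex I list, fell by 1.0 (Ndufa5) and 0.79 (Ndufa4). Cox6a2, the muscle form of a cytochrome oxidase subunit, had 1424 and 1362 FPKM in Cre- and 827 and 784 in Cre+ (log2 fold change -1.12, SE 0.18, adjusted p = 0.000625), and Atp5b, the catalytic subunit of ATP synthase, had 2330 and 2472 FPKM in Cre- and 1962 and 1991 in Cre+ (log2 fold change -0.61, SE 0.18, adjusted p = 0.0206). Atp5l was listed at 3.97 and 3.37 FPKM in Cre- and 2.22 and 1.47 in Cre+, far below its partners in ATP synthase. Scaling changed these counts, since 7 of 37 and 13 of 42 fell with library size alone, while both medians stayed below 0 and below that of all genes (-0.41 and -0.42). Without Cre+ replicate 2, 25 and 20 fell. Atp5b (-0.58) and Atp5l (-1.0) did not pass the test without Cre+ replicate 2. Atp5l (-1.21) fell short of the threshold without Cre- replicate 1. Atp5b (-0.54) lost the call without Cre- replicate 2.

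Many genes of mitochondrial matrix pathways fell too, though most of those for fatty acid oxidation did not. Falls made up 57.1% of the TCA list, 36% of fatty acid oxidation and 26.9% of mitochondrial biogenesis, against 10.2% over all tested genes. Rises made up 3.57%, 0% and 3.85%, against 13.8%. Of 28 genes of the TCA cycle and pyruvate entry 16 fell and 1 rose (median -0.60, 3 down with library size alone and 10 without Cre+ replicate 2). Got1, of the malate-aspartate shuttle, had 267 and 299 FPKM in Cre- and 169 and 143 in Cre+ (log2 fold change -1.19, SE 0.17, adjusted p = 0.000295), and Mdh2 fell by 0.63. Idh2, which makes NADPH in mitochondria, rose from 162 and 108 to 365 and 434 FPKM (log2 fold change 1.24, SE 0.19, adjusted p = 0.000587). Of 25 genes of fatty acid oxidation 9 fell and none rose, against 3 falls and 2 rises with library size alone. Cpt1b, which admits fatty acids to mitochondria, had 119 and 131 FPKM in Cre- and 80.4 and 70.4 in Cre+ (log2 fold change -1.06, SE 0.15, adjusted p = 0.000282), Acacb, which makes the inhibitor of Cpt1b, fell by 0.90, and Etfb by 0.62. Among 26 genes of mitochondrial biogenesis 7 fell and 1 rose, with the muscle regulators Perm1 at 67.8 and 68.8 FPKM in Cre- and 36.4 and 26.9 in Cre+ (log2 fold change -1.43, SE 0.20, adjusted p = 0.000254) and Ppargc1a at 6.88 and 6.17 FPKM in Cre- and 4.62 and 3.65 in Cre+. Ppargc1a fell by 0.98 (SE 0.19), and the pore Vdac1 had 898 and 930.5 FPKM in Cre- and 805 and 846 in Cre+, a change under the fold threshold. Of 76 mitochondrial ribosome genes 2 rose and 8 fell, near or under the background, with Mrps36 (-0.83) and Mrpl41 (-0.81) falling most and Mrpl42 not called at 291 and 277 FPKM in Cre- and 258 and 263 in Cre+. For mitochondrial biogenesis, 3 rose and 3 fell with library size alone and 4 fell without Cre+ replicate 2, and for mitochondrial ribosomes 10 rose and 0 fell with library size alone, 6 rose without Cre+ replicate 1 and 3 fell without Cre- replicate 2. Etfb (-0.57), Mdh2 (-0.56) and Mrps36 (-0.78) did not pass the test without Cre+ replicate 2. Mdh2 (-0.48) and Mrps36 (-0.67) fell short of the threshold without Cre- replicate 2.

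Of 12 phosphagen and purine nucleotide genes, 7 fell and 3 rose (58.3% and 25%, against 10.2% and 13.8% over all tested genes). Ckm, muscle creatine kinase, had 18270 and 18660 FPKM in Cre- and 12380 and 10470 in Cre+ (log2 fold change -1.02, SE 0.22, adjusted p = 0.00461). Ampd1, the AMP deaminase of fast fibers, had 496 and 597 FPKM in Cre- and 252 and 84.5 in Cre+ (log2 fold change -2.01, SE 0.39, adjusted p = 0.00226), lowest in replicate 2. Gamt, which makes creatine, was higher in both Cre+ libraries at 5.89 and 20.6 FPKM in Cre- and 46.3 and 49.8 in Cre+ (log2 fold change 1.51, SE 0.43, adjusted p = 0.0203), though its 2 controls differed widely. The mitochondrial ATP-Mg and phosphate carrier Slc25a25, on no list, had 64.3 and 101 FPKM in Cre- and 27.1 and 9.03 in Cre+ (log2 fold change -2.51, SE 0.54, adjusted p = 0.00433). The falls numbered 4 without Cre+ replicate 2, and the rises 1 without Cre- replicate 1. Ckm (-0.86) and Gamt (1.5) did not pass the test without Cre+ replicate 2. Gamt (0.86) fell short of the threshold without Cre- replicate 1.

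Many genes for making ribosomes rose, more in replicate 2. Of 68 ribosome biogenesis genes 31 rose and none fell (13.8% and 10.2% over all tested genes), with a median of 0.24 in Cre+ replicate 1 and 0.83 in replicate 2. Ftsj3, an rRNA processing factor, had 13.6 and 13.5 FPKM in Cre- and 43.8 and 119 in Cre+ (log2 fold change 2.23, SE 0.32, adjusted p = 0.000339). Utp18, of the small subunit processome, had 2.30 and 2.48 FPKM in Cre- and 7.31 and 14.7 in Cre+ (log2 fold change 1.86, SE 0.26, adjusted p = 0.000327). Npm1, nucleophosmin and the most abundant member, had 79.2 and 70.2 FPKM in Cre- and 151 and 251 in Cre+ (log2 fold change 1.09, SE 0.18, adjusted p = 0.000713). In all 3 the order was the same, with controls lowest, replicate 1 between and replicate 2 highest. Without Cre+ replicate 1, 54 of the 68 rose, 11 without Cre+ replicate 2, 15 without Cre- replicate 1 and 17 without Cre- replicate 2, and with library size alone 59.

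The promoters of these genes were searched for the E-box that Myc is known to bind. RefSeq promoters (GRCm38.p6, 250 bases before to 50 after a gene's start) were found for 61 of the 68 genes, and 12 of the 61 (19.7%) hold CACGTG, a palindrome read the same on both strands. Over all 32851 promoters of that length 7.15% hold it, as do 8 of 38 promoters of translation factors (21.1%). In lists with many falls, 2 of 33 promoters of complex I genes hold it (6.06%), 4 of 33 of complexes II to V (12.1%) and 2 of 22 of sarcomere genes (9.09%). Of the 30 ribosome biogenesis genes with a promoter that rose, 6 hold it: Nop2, Utp18, Wdr43, Tsr1, Nle1 and Imp4. Of the 31 that did not rise, 6 hold it as well. Other motifs were searched on both strands: ATGCAAAT, the octamer bound by Oct4, stands in 1.64% of the 61 promoters and 1.74% of all, and CACCC, which Klf factors bind, in 63.9% and 57.5%. Among the 6 that rose and hold the E-box, the promoters of the 3 that rose most are printed to show where it lies, in capitals. They run 5′ to 3′ on the gene's own strand: Utp18 (chr11:93885717-93886016, minus strand), Tsr1 (chr11:74897830-74898129, plus strand) and Wdr43 (chr17:71615965-71616264, plus strand).
Utp18: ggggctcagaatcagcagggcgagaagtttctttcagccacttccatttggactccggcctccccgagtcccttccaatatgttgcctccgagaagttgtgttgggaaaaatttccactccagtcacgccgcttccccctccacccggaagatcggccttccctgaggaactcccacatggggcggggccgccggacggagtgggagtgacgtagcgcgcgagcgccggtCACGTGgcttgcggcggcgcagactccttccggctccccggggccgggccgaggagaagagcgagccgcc
Tsr1: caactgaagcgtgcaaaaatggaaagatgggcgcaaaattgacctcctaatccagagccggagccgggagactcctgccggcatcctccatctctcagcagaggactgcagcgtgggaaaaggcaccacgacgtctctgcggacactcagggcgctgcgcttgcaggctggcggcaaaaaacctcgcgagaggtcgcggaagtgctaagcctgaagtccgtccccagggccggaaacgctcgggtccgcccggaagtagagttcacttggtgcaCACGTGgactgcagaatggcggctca
Wdr43: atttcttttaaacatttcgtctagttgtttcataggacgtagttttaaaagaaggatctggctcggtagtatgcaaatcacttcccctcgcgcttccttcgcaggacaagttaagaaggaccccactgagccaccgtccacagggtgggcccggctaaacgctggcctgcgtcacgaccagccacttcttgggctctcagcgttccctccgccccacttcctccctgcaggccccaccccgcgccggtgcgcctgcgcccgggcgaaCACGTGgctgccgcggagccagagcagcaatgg
The E-box starts 20 bases before the gene's start in Utp18, 24 bases after it in Tsr1 and 17 bases after it in Wdr43. Tsr1, a maturation factor of the small subunit, had 9.17 and 8.37 FPKM in Cre- and 19.1 and 39.3 in Cre+ (log2 fold change 1.39, SE 0.23, adjusted p = 0.000888), and Wdr43, a processome protein, had 10.8 and 9.16 FPKM in Cre- and 16.4 and 32.5 in Cre+ (log2 fold change 0.95, SE 0.23, adjusted p = 0.00821). Such a match is a description of the letters, and binding was not measured in these libraries. Wdr43 (0.43) did not pass the test without Cre+ replicate 2. Wdr43 (0.86) fell short of the threshold without Cre- replicate 2.

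Of 50 translation factors, 19 rose and none fell, with a median of 0.38 and 6 rises without Cre+ replicate 2. Eef1a1, an elongation factor, had 309.5 and 239.7 FPKM in Cre- and 1087 and 1438 in Cre+ (log2 fold change 1.87, SE 0.27, adjusted p = 0.00035), close in the 2 Cre+ libraries. Eef2, the most abundant, had 628 and 429 FPKM in Cre- and 964 and 1122 in Cre+ (log2 fold change 0.65, SE 0.20, adjusted p = 0.0258), and Eif1a, an initiation factor, had 4.92 and 4.58 FPKM in Cre- and 8.85 and 24.5 in Cre+ (log2 fold change 1.46, SE 0.31, adjusted p = 0.00361). Of 82 cytosolic ribosomal proteins 13 rose, little over the background, and 1 fell, but 53 rose with library size alone, 22 without Cre+ replicate 1, 3 without Cre+ replicate 2 and 4 without Cre- replicate 2. Rpl3, the common form, rose from 48.9 and 50.2 to 100.3 and 198 FPKM (log2 fold change 1.24, SE 0.28, adjusted p = 0.00568) and Rpl3l, its form in striated muscle, fell from 399 and 399 to 258 and 201 FPKM (log2 fold change -1.12, SE 0.19, adjusted p = 0.000958). Rplp1, the most abundant, was level (log2 fold change 0.01). The shares that rose and fell were 38% and 0% of translation factors and 15.9% and 1.22% of ribosomal proteins. Among all tested genes they were 13.8% and 10.2%. Only uniquely placed reads were counted, which lowers the level of genes with near-identical copies elsewhere, such as Eef1a1, Npm1, Ppia, Atp5l and ribosomal proteins, so that their levels and changes are uncertain. Rises of translation factors numbered 31 with library size alone and 11 without Cre- replicate 2. Atp5l (-1.0), Eef2 (0.59) and Rpl3 (0.73) did not pass the test without Cre+ replicate 2. Atp5l (-1.21) fell short of the threshold without Cre- replicate 1. Eef2 (0.42) lost the call without Cre- replicate 2.

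Amino acid genes showed single large rises and no common direction. Slc7a1, a carrier of cationic amino acids, rose 10.4-fold, from 1.30 and 1.22 to 6.94 and 26.7 FPKM (log2 fold change 3.38, SE 0.49, adjusted p = 0.000378), and Psat1, of serine synthesis, rose 6.85-fold, from 0.981 and 1.38 to 10.4 and 10.1 FPKM (log2 fold change 2.78, SE 0.31, adjusted p = 7.04e-05). Psat1 was as high in replicate 1 as in replicate 2, whereas Slc7a1 was higher in replicate 2. On the list of amino acid and integrated stress response genes 5 rose and 4 fell of 30 (16.7% and 13.3%), also near the background. Its central factor Atf4 had 123 and 118 FPKM in Cre- and 116 and 143 in Cre+ (adjusted p = 0.202). Of 22 aminoacyl-tRNA synthetase genes 3 rose and 1 fell, shares near the background of 13.8% and 10.2%. Vars, the valine enzyme, rose by 1.27 (SE 0.19), and Aimp2, a scaffold of the synthetase complex, fell from 146 and 246 to 64.8 and 76.2 FPKM (log2 fold change -1.81, SE 0.23, adjusted p = 0.000174). Library size alone gave 8 rises and 1 fall on the amino acid list and 12 rises of synthetases. The fit without Cre+ replicate 1 gave 8 rises and 7 rises, and that without Cre+ replicate 2 gave 1 fall on the amino acid list.

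Of 35 genes of nucleotide and one-carbon synthesis 11 rose and 3 fell (31.4% and 8.57%, against 13.8% and 10.2% over all tested genes). The falls were thus near the background. Mthfd1l, a mitochondrial folate enzyme, had 0.758 and 0.794 FPKM in Cre- and 3.31 and 6.91 in Cre+ (log2 fold change 2.37, SE 0.31, adjusted p = 0.000191), and its partner Mthfd2 rose by 1.51 (SE 0.24). Nme2, the most abundant, was not called at 324 and 303 FPKM in Cre- and 419.5 and 446 in Cre+, and Tk1, thymidine kinase, fell by 1.10 (SE 0.21). Of 14 polyamine genes 2 rose and 4 fell (14.3% and 28.6%), the rises near the background of 13.8%. Sat1, which acetylates polyamines for export, had 20.2 and 16.9 FPKM in Cre- and 45.4 and 108 in Cre+ (log2 fold change 1.70, SE 0.28, adjusted p = 0.000772), and Smox, spermine oxidase, had 72.9 and 102 FPKM in Cre- and 32.1 and 29.6 in Cre+ (log2 fold change -1.83, SE 0.22, adjusted p = 0.000113). Srm, spermidine synthase, rose by 1.49, and Oaz1, the antizyme, was under the fold threshold at 186 and 184 FPKM in Cre- and 169.7 and 175 in Cre+. Of the nucleotide list 17 rose with library size alone and 7 without Cre+ replicate 2, and of the polyamine list 5 rose and 1 fell with library size alone and 2 fell without Cre+ replicate 1 or without Cre- replicate 2.

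Cell cycle genes rose about as often as all tested genes and none fell, while the inhibitor Cdkn1a rose. Of 45 genes of the cell cycle and replication 6 rose (13.3%, against 13.8% of all tested genes) and none fell (10.2% of all tested genes). The list median was 0.32 against -0.05 for all genes, and 0.65 against 0.28 with library size alone. Ccne1, cyclin E1, had 0.268 and 0.530 FPKM in Cre- and 1.98 and 2.14 in Cre+ (log2 fold change 2.02, SE 0.45, adjusted p = 0.00537), Rb1, the retinoblastoma protein, had 4.41 and 3.63 FPKM in Cre- and 10.6 and 13.6 in Cre+ (log2 fold change 1.25, SE 0.18, adjusted p = 0.000403), and Cdk4 had 25.4 and 25.8 FPKM in Cre- and 38.9 and 46.9 in Cre+, and was not called. Mki67, the proliferation marker, was near 0 in all libraries at 0.0180 and 0.0610 FPKM in Cre- and 0.239 and 0.0673 in Cre+ (adjusted p = 0.17). Of 7 CDK inhibitors 1 rose, Cdkn1a (p21; chr17:29093769-29100722), by 6.12-fold. It had 16 and 13.6 FPKM in Cre- and 89.2 and 139 in Cre+ (log2 fold change 2.61, SE 0.21, adjusted p = 1.04e-05), and both Cre+ libraries were far above controls. Among 29 targets of p53 7 rose and 1 fell (24.1% and 3.45%, against 13.8% and 10.2% over all tested genes), with Eda2r, a death receptor, at 1.78 and 1.90 FPKM in Cre- and 7.68 and 6.26 in Cre+ (log2 fold change 1.59, SE 0.40, adjusted p = 0.00981) and Zmat3 at 1.70 and 1.80 FPKM in Cre- and 3.19 and 5.74 in Cre+. Phlda3, the most abundant target, had 166 and 170.1 FPKM in Cre- and 158 and 146 in Cre+, under the fold threshold. The median of the p53 list was -0.01 against -0.05 for all genes, and 0.33 against 0.28 with library size alone. Without Cre+ replicate 1 these medians were 0.05 and -0.07. The share of p53 targets that fell changed with the library left out, so no contrast with 10.2% is drawn from it. Rises of the cell cycle list numbered 11 with library size alone and 3 without Cre- replicate 1, and those of the p53 list 3 without Cre+ replicate 2, 2 without Cre- replicate 1 and 2 without Cre- replicate 2. Ccne1 (1.60) and Eda2r (1.53) did not pass the test without Cre- replicate 1. Eda2r (1.67) fell short of the threshold without Cre- replicate 2.

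In the Myc network itself 3 of 12 rose and 1 fell (25% and 8.33%, against 13.8% and 10.2% over all tested genes), and 1 rose without Cre- replicate 1. Mxd3, a Myc antagonist of proliferating cells, had 0.0175 and 0.119 FPKM in Cre- and 1.88 and 6.34 in Cre+ (log2 fold change 5.50, SE 0.89, adjusted p = 0.000758), and Mlxipl (ChREBP), the glucose-sensing member, had 41.2 and 38.4 FPKM in Cre- and 23.3 and 15.1 in Cre+ (log2 fold change -1.37, SE 0.19, adjusted p = 0.000281). Among 39 chromatin and DNA methylation genes 4 rose and 7 fell (10.3% and 17.9%), the rises under the background, with Tet1 and its relative Tet2 among the rises, Tet2 at 2.89 and 2.50 FPKM in Cre- and 6.79 and 8.94 in Cre+ (log2 fold change 1.21, SE 0.29, adjusted p = 0.00785). Of 44 splicing factors 3 rose and 4 fell, both under the background. Hnrnpa1 rose by 1.0 (SE 0.16), Hnrnpab by 0.90 (SE 0.30), and Hnrnpa2b1 was not called at 132 and 131 FPKM in Cre- and 122 and 127 in Cre+. With library size alone 6 Myc network, 13 chromatin and 6 splicing genes rose, and 3 chromatin and 0 splicing genes fell. Chromatin rises numbered 2 without Cre+ replicate 2 or without either Cre- library, and chromatin falls 4 without Cre+ replicate 2 and 3 without Cre- replicate 1. Splicing rises numbered 1 without Cre+ replicate 2 or without either Cre- library, and splicing falls 7 without Cre+ replicate 1. Tet1 (1.20) did not pass the test without Cre+ replicate 1. Hnrnpab (0.18) and Tet2 (1.05) fell short of the threshold without Cre+ replicate 2. Hnrnpab (0.78) and Tet1 (1.21) lost the call without Cre- replicate 1. Hnrnpab (1.02) and Tet2 (1.14) were not called without Cre- replicate 2.

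Microtubule genes rose more often than they fell, while actin genes did not move one way. Of 42 genes of microtubules and motors 15 rose and 3 fell (35.7% and 7.14%, against 13.8% and 10.2% over all tested genes). Without Cre+ replicate 2, 12 rose and 0 fell, and without Cre- replicate 2, 14 and 0. Tubb6, a tubulin that rises in regenerating muscle, had 9.25 and 10.7 FPKM in Cre- and 137 and 117 in Cre+ (log2 fold change 3.34, SE 0.35, adjusted p = 4.69e-05), and Tubb5, a common beta tubulin, had 20.7 and 23.9 FPKM in Cre- and 181 and 269 in Cre+ (log2 fold change 2.99, SE 0.32, adjusted p = 5.31e-05). Tubb6 was higher in replicate 1 and Tubb5 in replicate 2. Dync1i1, a dynein chain of neurons, had 0.174 and 0.233 FPKM in Cre- and 2.83 and 6.30 in Cre+ (log2 fold change 4.13, SE 0.55, adjusted p = 0.000217). Tuba4a, the most abundant, had 191 and 271 FPKM in Cre- and 383 and 215 in Cre+ and did not pass (adjusted p = 0.917). Of 59 actin cytoskeleton genes 7 rose and 11 fell (11.9% and 18.6%), the rises under the background, but 11 rose and 3 fell with library size alone, 6 and 1 without Cre+ replicate 2, and 7 and 3 without Cre- replicate 2. Dbn1, drebrin, rose by 1.38 (SE 0.29), the smooth muscle calponin Cnn1 fell by 1.89 (SE 0.51), and Gsn had 722 and 353 FPKM in Cre- and 529 and 446 in Cre+ (adjusted p = 0.338). Cnn1 is a marker of smooth muscle as well, on a list of 8 where 3 fell and 1 rose. Its fall stands beside those of Tagln and Notch3. Cspg4 of that list went the other way, with 2.35 and 2.32 FPKM in Cre- and 6.19 and 7.40 in Cre+. With library size alone 1 marker of that list fell. Cnn1 (-1.59) and Dbn1 (0.94) did not pass the test without Cre+ replicate 2. Cnn1 (-0.91) fell short of the threshold without Cre- replicate 2.

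Among 39 heat shock and chaperone genes 6 rose and 3 fell (15.4% and 7.69%), shares near the background of 13.8% and 10.2%. Ppia, cyclophilin A, a prolyl isomerase often used as a reference gene, rose 7.47-fold, from 124 and 107 to 774 and 1414 FPKM (log2 fold change 2.9, SE 0.22, adjusted p = 9.9e-06). Dnajb5, a co-chaperone, fell from 117 and 112 to 45.5 and 35.7 FPKM (log2 fold change -1.82, SE 0.17, adjusted p = 1.93e-05). In neither gene did the groups overlap. Of 34 proteasome genes 1 rose and 2 fell (2.94% and 5.88%), under the background with the chosen settings. Falls were more numerous without Cre+ replicate 1 or without Cre- replicate 1. Psmd8, of the regulatory particle, rose by 0.82, Psme1, of the immune activator, fell by 0.67, and Psmb7 was not called (247 and 254 FPKM in Cre- and 251 and 245 in Cre+, log2 fold change -0.35). Of 26 atrophy and autophagy genes 3 rose and 5 fell (11.5% and 19.2%), and 3 fell without Cre+ replicate 2 or with library size alone. The rises were the metallothioneins Mt2, at 18 and 16.6 FPKM in Cre- and 56.2 and 115 in Cre+ (log2 fold change 1.96, SE 0.50, adjusted p = 0.0117), and Mt1 (log2 fold change 1.49) and the autophagosome protein Map1lc3b, at 113 and 97.5 FPKM in Cre- and 329 and 343 in Cre+ (log2 fold change 1.34, SE 0.12, adjusted p = 1.35e-05). Ctsd, the most abundant, was not called (log2 fold change 0.45). Heat shock genes that rose numbered 13 with library size alone and 3 without Cre+ replicate 2, and library size alone raised the proteasome rises to 6 and those of atrophy and autophagy to 8. Mt2 (1.42) and Psme1 (-0.64) did not pass the test without Cre+ replicate 2. Mt2 (2.00) and Psmd8 (0.70) fell short of the threshold without Cre- replicate 1. Mt2 (1.93) and Psme1 (-0.64) lost the call without Cre- replicate 2.

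Of 46 signaling genes of the satellite cell niche 7 rose and 12 fell (15.2% and 26.1%), the rises near the background of 13.8%, with a median of -0.23 against -0.05 for all genes, and 0.10 against 0.28 with library size alone. Wnt4 (chr4:137277635-137299501), a ligand that myofibers send to satellite cells, had 8.50 and 6.20 FPKM in Cre- and 1.5 and 1.95 in Cre+ (log2 fold change -2.42, SE 0.28, adjusted p = 8.73e-05), so that both Cre+ libraries lay far below the controls and replicate 1 was the lower. Wnt2b, another Wnt ligand, was near 0 in controls and had 0.0825 and 0.129 FPKM in Cre- and 0.674 and 3.85 in Cre+ (log2 fold change 4.04, SE 0.68, adjusted p = 0.000907), highest in replicate 2. Itga7, the laminin receptor chain of myofibers and satellite cells, had 35.8 and 30.2 FPKM in Cre- and 163 and 221 in Cre+ (log2 fold change 2.20, SE 0.22, adjusted p = 3.34e-05). Sdc4, a heparan sulfate proteoglycan, had 10.1 and 12.1 FPKM in Cre- and 29.3 and 39.2 in Cre+ (log2 fold change 1.29, SE 0.29, adjusted p = 0.00576). Gdf11, a TGF-beta family ligand, had 2.07 and 1.62 FPKM in Cre- and 14.5 and 8.65 in Cre+ (log2 fold change 2.34, SE 0.34, adjusted p = 0.000367), higher in replicate 1. Vegfa, the growth factor of vessels, fell by 1.22 (SE 0.17), and Dll4, a Notch ligand of endothelium, by 1.19 (SE 0.20). These stand beside the lower endothelial markers given above, with sums of 163 and 181 FPKM in Cre- and 142 and 136 in Cre+, whose part in the niche results was not tested. Of the 46 genes 6 fell with library size alone, 6 without Cre+ replicate 2 and 7 without Cre- replicate 1. Sdc4 (1.12) did not pass the test without Cre+ replicate 2. Sdc4 (1.14) fell short of the threshold without Cre- replicate 1.

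Few matrix and interferon response genes were called, where 13.8% of all tested genes rose and 10.2% fell. Of 34 collagen and matrix genes 1 rose, Timp1, an inhibitor of metalloproteinases, at 1.88 and 3.52 FPKM in Cre- and 9.01 and 13.3 in Cre+ (log2 fold change 1.70, SE 0.53, adjusted p = 0.0298), and none of 26 interferon response genes was called by edgeR, with B2m at 113 and 87.1 FPKM in Cre- and 138 and 127 in Cre+. Sparc, the most abundant matrix gene, had 872 and 891 FPKM in Cre- and 1184 and 689.8 in Cre+ and did not pass (adjusted p = 0.588). Their medians differed between the Cre+ libraries, at 0.10 and -0.44 for matrix and 0.11 and -0.81 for interferon genes, lower in replicate 2. Fibroblast marker sums behaved alike, at 2495 FPKM in Cre+ replicate 1 and 1369 in replicate 2 against 1895 and 1659 in controls, and their part in this was not tested. Of 19 clock genes 2 fell. Bhlhe41 (Dec2) fell by 1.37 (SE 0.24), and Tef was not called at 127 and 119 FPKM in Cre- and 132 and 137 in Cre+. Timp1 (1.45) did not pass the test without Cre+ replicate 2. Timp1 (1.30) fell short of the threshold without Cre- replicate 1.

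**Figure D3:**
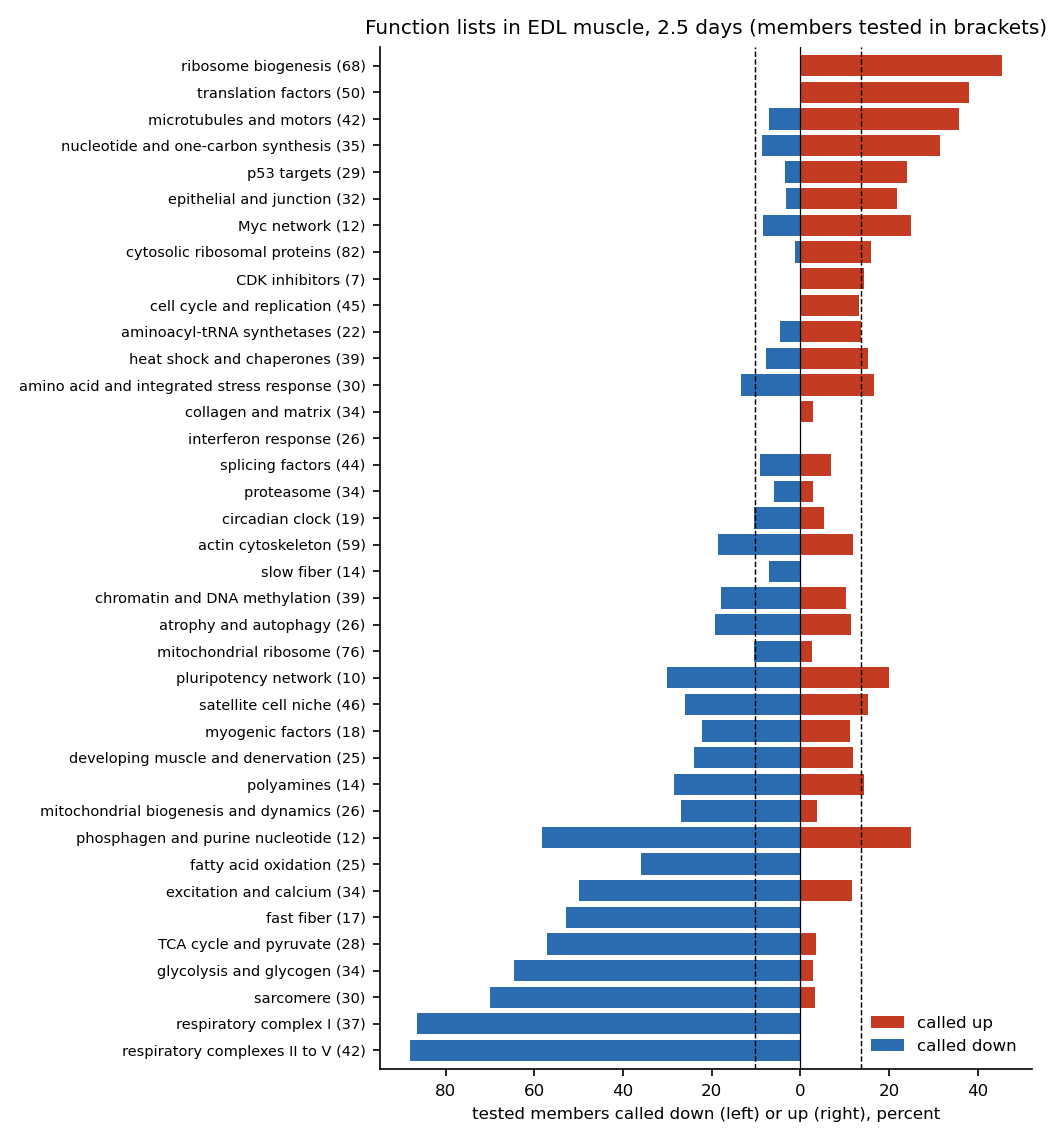
Percent of the tested members of each function list that rose (red, right) or fell (blue, left) in EDL muscle at 2.5 days, with the number tested in brackets and dashed lines at the shares over all tested genes, 13.8% up and 10.2% down. Lists of ribosome biogenesis and translation stand at the top with no falls, and lists of respiration, sarcomere, glycolysis and the TCA cycle at the bottom.

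Several of the largest falls were of fiber genes outside the lists. Dupd1, a dual specificity phosphatase of muscle, had 30.1 and 57.6 FPKM in Cre- and 4.82 and 2.14 in Cre+ (log2 fold change -3.97, SE 0.51, adjusted p = 0.000178), and Rhbdl1, a rhomboid protease, had 21.6 and 24.7 FPKM in Cre- and 3.53 and 3.49 in Cre+ (log2 fold change -3.05, SE 0.17, adjusted p = 3.82e-06), the latter almost equal in the 2 Cre+ libraries. Arrdc2, an arrestin family protein that glucocorticoids induce in muscle, had 94.2 and 88.5 FPKM in Cre- and 21.3 and 15.9 in Cre+ (log2 fold change -2.62, SE 0.46, adjusted p = 0.00125). Low-level transcripts fell by similar amounts, such as Pnmt, the enzyme that makes adrenaline (4.48 and 2.33 FPKM in Cre- and 0.733 and 0.664 in Cre+), the protease Prss55 (2.02 and 1.72 FPKM in Cre- and 0.270 and 0.224 in Cre+) and the cytokine chain Il12a (3.34 and 1.99 FPKM in Cre- and 0.611 and 0.517 in Cre+). Each of these 6 was lower in both Cre+ libraries than in both controls, as the rule that named them required.

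**Figure D4:**
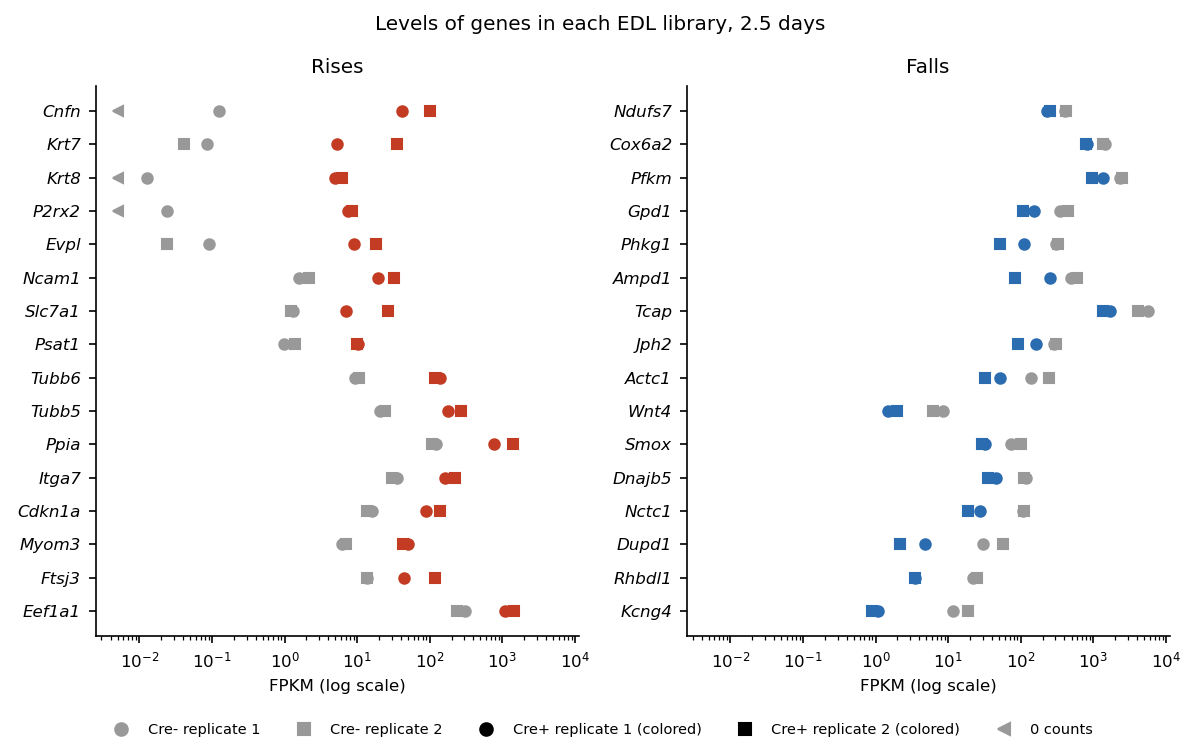
Levels in FPKM (log axis) of 16 genes that rose (left) and 16 that fell (right), with gray for Cre- and color for Cre+ libraries, circles for replicate 1 and squares for replicate 2, and left-pointing triangles for 0 counts. In every gene shown the 2 Cre+ points lie on one side of both Cre- points, and Kcng4 falls furthest among the genes on the right.

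Not every called gene moved further in replicate 2, and 355 rises and 313 falls were no further from the controls in replicate 2 than in replicate 1. Among rises of at least 1 FPKM, those highest in replicate 1 relative to replicate 2 were Arhgdig (0.177 and 0.364 FPKM in Cre- and 2.94 and 1.26 in Cre+), the noncoding RNA 9030619P08Rik (0.133 and 0.103 FPKM in Cre- and 2.75 and 1.19 in Cre+), Socs2, a brake on growth hormone signaling (5.07 and 5.80 FPKM in Cre- and 17.6 and 8.95 in Cre+), the copine Cpne2 (3.23 and 2.98 FPKM in Cre- and 28.4 and 15.5 in Cre+) and the ciliary transport protein Ift122 (2.89 and 3.55 FPKM in Cre- and 15.8 and 8.64 in Cre+). All 5 were higher in both Cre+ libraries than in both controls. Cpne2 rose by 2.51 (SE 0.29, adjusted p = 0.0001). Of the 2 called rises in which the groups overlapped after scaling, Fam78b passed 1 FPKM and had 0.645 and 0.774 FPKM in Cre- and 0.894 and 3.13 in Cre+, so that its rise rests on replicate 2. Socs2 (0.34) did not pass the test without Cre+ replicate 1. Fam78b (0.05) fell short of the threshold without Cre+ replicate 2. Arhgdig (2.18), Fam78b (1.0) and Socs2 (0.85) lost the call without Cre- replicate 1. Fam78b (1.31) and Socs2 (1.10) were not called without Cre- replicate 2.

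The response at 2.5 days was set beside longer induction. After 8.5 days of Dox, in other libraries, 1173 genes rose (7.63%) and 999 fell (6.5%), and 944 of the rises and 686 of the falls were shared, with 0 genes called in opposite directions. At 2.5 days 2118 rose and 1566 fell, and 1288 and 714 without Cre+ replicate 2, the latter fewer than the falls at 8.5 days. The shared rises are 44.6% of those at 2.5 days and 80.5% of those at 8.5 days, and the shared falls 43.8% and 68.7%. The difference of the change between the 2 times was tested in the same fit and 0 genes passed in either direction (0%), by edgeR at adjusted p under 0.05, with a lowest adjusted p of 0.0522. At an unadjusted p under 0.05, 885 changes were more positive at 2.5 days and 584 more negative, and DESeq2 called 99 and 42. Without Cre+ replicate 1, 306 and 106 genes passed in edgeR. No gene can therefore be named as particular to 2.5 days from this test. Side by side, the complex I median was -0.74 at 2.5 and -0.72 at 8.5 days, that of the sarcomere -0.86 and -0.33, and that of ribosome biogenesis 0.57 and 0.37. For single genes, Cdkn1a changed by 2.61 at 2.5 and 2.09 at 8.5 days, Wnt4 by -2.42 and -2.63, and Itga7 by 2.20 and 1.53.

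The slow soleus (SOL) muscle of the same genotypes and time had far fewer calls. There 53 genes rose (0.345%) and 6 fell (0.039%), and 48 and 5 of these were also called in EDL. They are 90.6% and 83.3% of the SOL calls but 2.27% and 0.319% of the EDL calls. The change in EDL exceeded that in SOL in 517 genes (3.36%) and was below it in 137 (0.891%). With the replicate number shared by EDL and SOL as a block, since libraries of one number deviated together, these counts were 701 and 318. They were 1230 and 555 without Cre+ replicate 1, 195 and 15 without Cre+ replicate 2, 155 and 36 without Cre- replicate 1, and 120 and 9 without Cre- replicate 2. Map1lc3b, Ppia and Rhbdl1 shared the lowest adjusted p of the genes named here. Map1lc3b had a log2 fold change of 1.34 in EDL and 0.04 in SOL (difference 1.30, SE 0.16, adjusted p = 0.00258). Cdkn1a rose by 2.61 in EDL and changed by 0.90 in SOL (difference 1.72, SE 0.29), and for Itga7 the values were 2.20 and 0.17. Wnt4 fell in EDL (-2.42) and SOL (-1.63), and its difference did not pass (adjusted p = 0.29). The complex I median was -0.74 in EDL and -0.51 in SOL, and that of glycolysis -0.87 and -0.10. OSKM levels differed between the muscles too: the log2 fold change of Klf4 was 2.02 in EDL and 0.08 in SOL, and that of Myc 4.12 and 2.18, and the part of this in the difference was not tested.

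**Figure D5:**
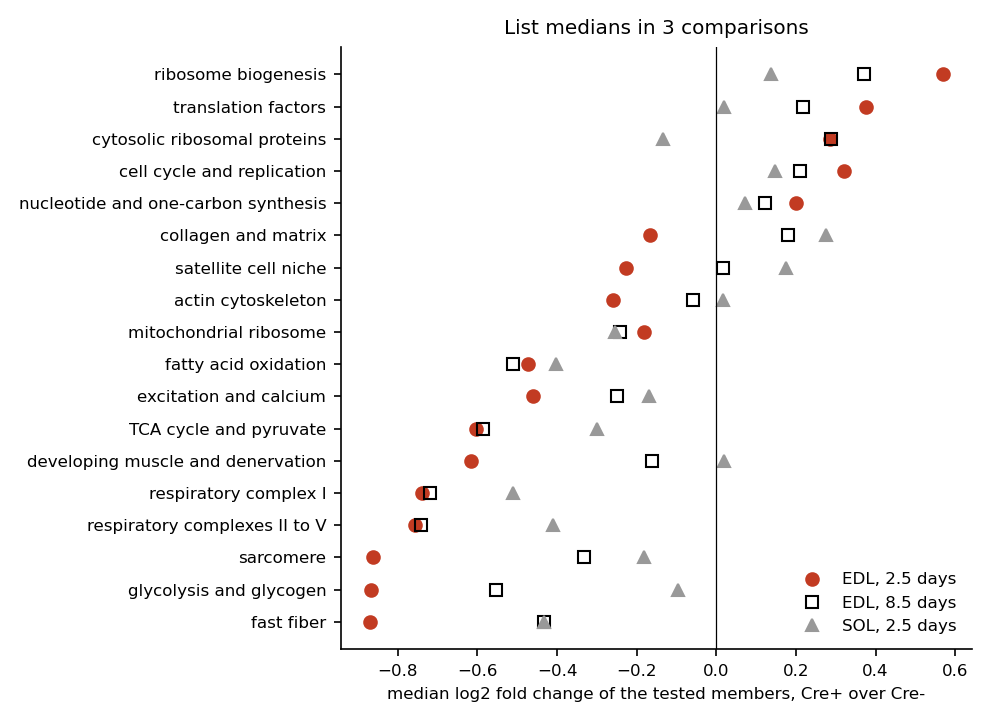
Median log2 fold change (Cre+ over Cre-) of the tested members of 18 function lists in EDL at 2.5 days (red circles), EDL at 8.5 days (open squares) and SOL at 2.5 days (gray triangles). Complex I lies at -0.74, -0.72 and -0.51, and ribosome biogenesis at 0.57, 0.37 and 0.14.

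With 2 libraries per group, the exact permutation test of a single gene cannot give a two-sided p under 0.333, so every call rests on the spread that edgeR shares between genes and groups. The study describes the libraries of a group as biologically independent, and the labels do not tie them to mice.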

How the data were processed

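RNA was taken from EDL muscle of Cre+ and Cre- mice after 2.5 days of Dox, with 2 polyA, stranded, single-end libraries per group. Per the methods and the labels, the authors checked the reads with FastQC 0.11.2, aligned them to mm10 (GRCm38) with STAR 2.5.3a and counted uniquely aligned reads on RefSeq exons with HOMER. The deposited values are raw counts per gene, with no normalization and replicates kept apart. Whether counting used the strand is not given in the sources used here. Total counts of the 4 libraries ranged from 44169130 to 47837662, and a count of 0 allows up to 3 counts, which covers counting error only.

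Counts were fitted in R 4.3.3 with edgeR 4.0.16 (quasi-likelihood test, TMM normalization, edgeR's filter with a minimum count of 10). The 16 libraries of 2.5 and 8.5 days entered 1 fit with 8 group means. DE genes passed 0.05 after Benjamini-Hochberg adjustment and changed by over 0.5 on the log2 scale in either direction. FPKM was count over exon length and total count. Changes per library are log2 of TMM-scaled CPM plus 0.05. A SE is the standard error of the log2 fold change. Alternatives were DESeq2 1.42.0, other scalings, filters, thresholds and sets of libraries, the replicate number as a block, and fits that dropped each library in turn. The test was also run on simulated data, whose outcome is not given here and is not used in the results. A match of RefSeq promoters covered 78.3% of the tested genes, so no share of motifs over called genes is given.

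The members and the 39 function and 14 marker lists were chosen with earlier results of these data known. Genes were named by a rule: OSKM, the 12 largest rises and falls of at least 1 FPKM without overlap, the 10 most abundant genes of controls, the most abundant and the 2 most changed called members of each list, the 5 rises highest in replicate 1 relative to 2, called genes with overlap, and Wnt4, Cdkn1a, Itga7, Sdc4 and Wnt2b, which the study names. One gene that the rule names is not reported here. Genes named outside the rule were chosen after their values were seen. Replicate numbers of Cre+ and Cre- libraries were checked for pairing by the correlation of deviations from group means. It was 0.0102 at 2.5 days and -0.17 at 8.5 days in EDL, so no pairing was seen. Each value rests on the difference between the libraries of each group, which cannot settle whether the numbers share a batch. Deviations of EDL and SOL correlated at 0.206 to 0.449 in 4 groups. No column of per-sample values was left unused.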

Additional observations from a re-analysis of the deposited data

Results flagged for a closer look

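Of 156 genes named by the rule or added after it, 38 changed differently in EDL and SOL muscles at 2.5 days by edgeR's test of the difference itself, 20 of them more positively in EDL and 18 more negatively, with adjusted p from 0.00258 to 0.0492 and SE from 0.16 to 1.08. Over all tested genes 3.36% and 0.891% did so, and most of the named genes were chosen for their change in EDL, so that their share is partly built in. Counts over all genes, 517 and 137, came to 120 and 9 without Cre- replicate 2. Among genes low in control muscle, the difference of the log2 fold change was Evpl 4.94, Lama3 4.85, Dync1i1 4.36, Arhgdig 3.32, Ncam1 2.71, Cpne2 1.97, Tfcp2l1 -2.10, Prss55 -2.47 and Il12a -2.16. Among genes of growth and synthesis it was Slc7a1 2.69, Mthfd1l 2.33, Psat1 2.32, Ftsj3 1.72, Eef1a1 1.53, Sat1 1.49, Smox -1.47, Aimp2 -1.59 and Tk1 -1.35. Among genes of metabolism it was Idh2 1.61, Got1 -0.92, Gpd1 -1.63, Perm1 -1.15, Hk2 -1.0 and Slc2a4 -1.07. Among genes of the cytoskeleton, sarcomere, chaperones, autophagy and cell cycle control it was Tubb6 2.52, Tubb5 2.22, Ppia 2.48, Dnajb5 -1.24, Myom3 1.77, Map1lc3b 1.30 and Cdkn1a 1.72. Among surface, signaling and noncoding genes it was Itga7 2.03, Chrnb1 -1.39, Vegfa -1.19, Dupd1 -3.44, Rhbdl1 -2.02, Nctc1 -1.76 and Mir1a-1hg -1.38. A value above 0 means a change more positive in EDL than in SOL. Several of these genes moved little in SOL, such as Map1lc3b (0.04 against 1.34 in EDL) and Vegfa (-0.03 against -1.22), while Evpl was higher in both muscles (2.59 in SOL and 7.54 in EDL). OSKM levels also differed between the muscles, and their part in these differences was not tested.

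Data of 5.5 days entered no comparison above. There Pou5f1 was at 1.02 FPKM in EDL Cre+ replicate 1 and 27.7 FPKM in replicate 2, against 0.0272 and 0 FPKM in the Cre- libraries of that time.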

How the results depend on the processing

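The counts of DE genes depend on scaling, thresholds and single libraries. At 2.5 days the rises numbered 1212 with an absolute log2 fold change over 1 and 4207 with library size alone, and 1288 to 2512 when each library was left out in turn. The falls numbered 549 over 1, 610 with library size alone, 908 in edgeR with the 4 libraries only, and 714 to 1768 when each library was left out. Neither count moved by over 1.5 times with DESeq2 on 16 or 4 libraries, DESeq2 size factors, other filters or all 24 libraries. Changes more positive at 2.5 than at 8.5 days, 0 with the chosen settings, numbered 99 with DESeq2, 2 with at least 10 counts in every library, 2 with no filter, 4 with all 24 libraries and 0 to 306 when each library was left out, and the more negative ones 42, 1, 1, 3 and 0 to 106. Changes more positive in EDL than in SOL numbered 1109 with DESeq2, 921 with library size alone, 883 with all 24 libraries and 120 to 1230 when each library was left out, and the more negative ones 348, 80, 274 and 9 to 555, with 81 over 1. The causes of these shifts were not tested, apart from the scaling given above.

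With the replicate number as a block, 2109 genes rose and 1563 fell, 0 and 0 differed between times, and 389 and 91 between muscles. With EDL and SOL of one number as a block, 701 and 318 differed between muscles. Crossing the numbers of 8.5 days, chosen after seeing the data, gave 2181 and 1691, 0 and 0, and 583 and 187. Of 117 called genes named by rule, 77 kept the call in every setting, 9 lost it with library size alone, 13 in edgeR with 4 libraries, 2 with the block, 3 without Cre+ replicate 1, 30 without Cre+ replicate 2, 16 without Cre- replicate 1 and 19 without Cre- replicate 2. None of the 117 changed sign in these settings, while 8 of the 20 that were not called did. Depth was even over the 4 libraries, and genes near 0 counts in controls have changes whose size rests on few counts.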
